A study of Arabidopsis thaliana with 8 samples.

Results

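The genes described here are those of the chloroplast genome of Arabidopsis thaliana, measured in the inflorescence stem of the cov mutant and of its wild type. They are the 69 probe sets of an Affymetrix ATH1 array that carry exactly 1 gene and whose gene lies on the plastid genome, out of 22746 probe sets without controls. Plastid genes were recognised by their lower-case symbols (psa, psb, pet, ndh, atp, rpo, rpl, rps, ycf, rbcL, accD, clpP, matK) or by a plastid locus tag, and mitochondrial genes were left out. All 69 gene IDs were found in RefSeq's gene table for TAIR10.1, which gave their names and order. Another 8 plastid probe sets carry several genes and are not members.

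RNA came from the tip or from the base of the stem, giving 4 groups of 2 arrays: cov tip, cov base, wild type tip and wild type base. The wild type is the accession Ler-0. The mutant is labelled cov, and the labels name neither its allele nor its parental accession. In all groups the plants were at growth stage 6.10 and had grown on compost with an insecticide treatment, at 22 °C and 65% humidity, in 24 h light. Nothing in the labels says whether both arrays of a group came from separate plants, so the p-values measure the spread between these arrays, which may be technical. The gene COV1, known as a regulator of vascular patterning in the stem, has no probe set named in the annotation used here, so the mutation was not checked on the arrays.

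Chloroplasts keep a small circular genome. It encodes core subunits of the photosynthetic complexes, the large subunit of Rubisco, part of the plastid ribosome, the core of a bacterial-type RNA polymerase (the plastid-encoded polymerase) and a few other proteins. The remaining subunits come from nuclear genes. Many plastid genes lie in transcription units that are copied together and then cut into smaller RNAs. In textbook accounts the plastid-encoded polymerase copies mainly photosynthesis genes. A nuclear-encoded phage-type polymerase copies rpoB, accD and other genes of plastid upkeep, and is most active in young tissue. Most plastid messages lack a stable poly(A) tail, and the labels name total RNA with biotin label but no primer for its copying.

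The values are MAS5 signals, which are linear hybridisation intensities already scaled to a common level on every array, and the signal of one probe set cannot be set against that of another. Differences are on the log2(signal + 11.85) scale from a limma fit over 15923 probe sets, and are given with the standard error (±). A gene was called, and is said to have risen or fallen, where the Benjamini-Hochberg adjusted p over all probe sets tested was under 0.05. A gene named with a difference and no such verb was not called unless its adjusted p is given and lies below that value. Only 2 arrays stand behind each group, which limits the precision. Where the arrays of 2 groups are said not to overlap, this describes the values. It adds no support for a difference, whether or not the gene was called. All 69 plastid probe sets passed the filter on dim signal (a mean over the 8 arrays of at least 21.36).

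Some arrays stood apart. Wild type tip array 1 differed from wild type tip array 2 by more than 1 log2 unit in 8 plastid genes, and wild type base array 1 from array 2 in 1 gene, against 0 in either cov group. The median gap between both arrays of a group over the 69 genes was 0.38 at the wild type tip, 0.36 at the wild type base, 0.23 at the cov base and 0.145 at the cov tip. Wild type tip array 1 also had the highest ratio of 3′ to 5′ actin control signal, 0.69 on the log2 scale against 0.15 to 0.55 on the others, and the median signal was lowest on wild type base array 1, at 41.4 against 46.4 to 50.1. For the genes most affected, values with 1 of these arrays left out are given beside the result.

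The labelled tissue was checked with marker genes. All 3 named genes of lignified fibre and xylem (IRX15, IRX15-L and GUT2, which act in xylan synthesis) rose at the base, by 3.36 to 4.53 in wild type and 2.29 to 3.07 in cov. The root marker PYK10 stayed between 15.9 and 26.4 on every array. Of the flower bud and anther markers, AMS was at 39.0 to 59.8 at the tips and 2.5 to 13 at the bases, and AGL24 was at 42.7 to 59.0 at the tips, 67.4 and 54.9 at the wild type base and 100.1 and 106.3 at the cov base, where it rose by 1.03 ± 0.19 (adjusted p = 0.00211), opposite to AMS. No marker of the dividing tip, of trichomes or of guard cells had a probe set named here.

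The first comparison asks how plastid transcripts differ between the mature base and the young tip of the wild type stem. Of the transcripts for photosynthetic complexes, most rose towards the base and none fell, and those for the plastid ribosome and RNA polymerase fell or were not called, except rps14, which rose. Of the 43 genes for photosystems, cytochrome b6f complex, ATP synthase, NDH complex and Rubisco, 28 rose, 0 fell and 42 were above 0, with a median difference of 0.89. Of the 19 ribosome and polymerase genes 1 rose and 8 fell, with a median of -0.34. Over all 69, 32 rose and 8 fell by limma, 46.4% and 11.6%, where among all probe sets tested 22.0% rose and 24.4% fell. The median of the 69 was 0.52 against -0.01 for all probe sets. In bulk stem tissue, more plastids or more green cells and more RNA per plastid cannot be told apart.

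**Figure D1:**
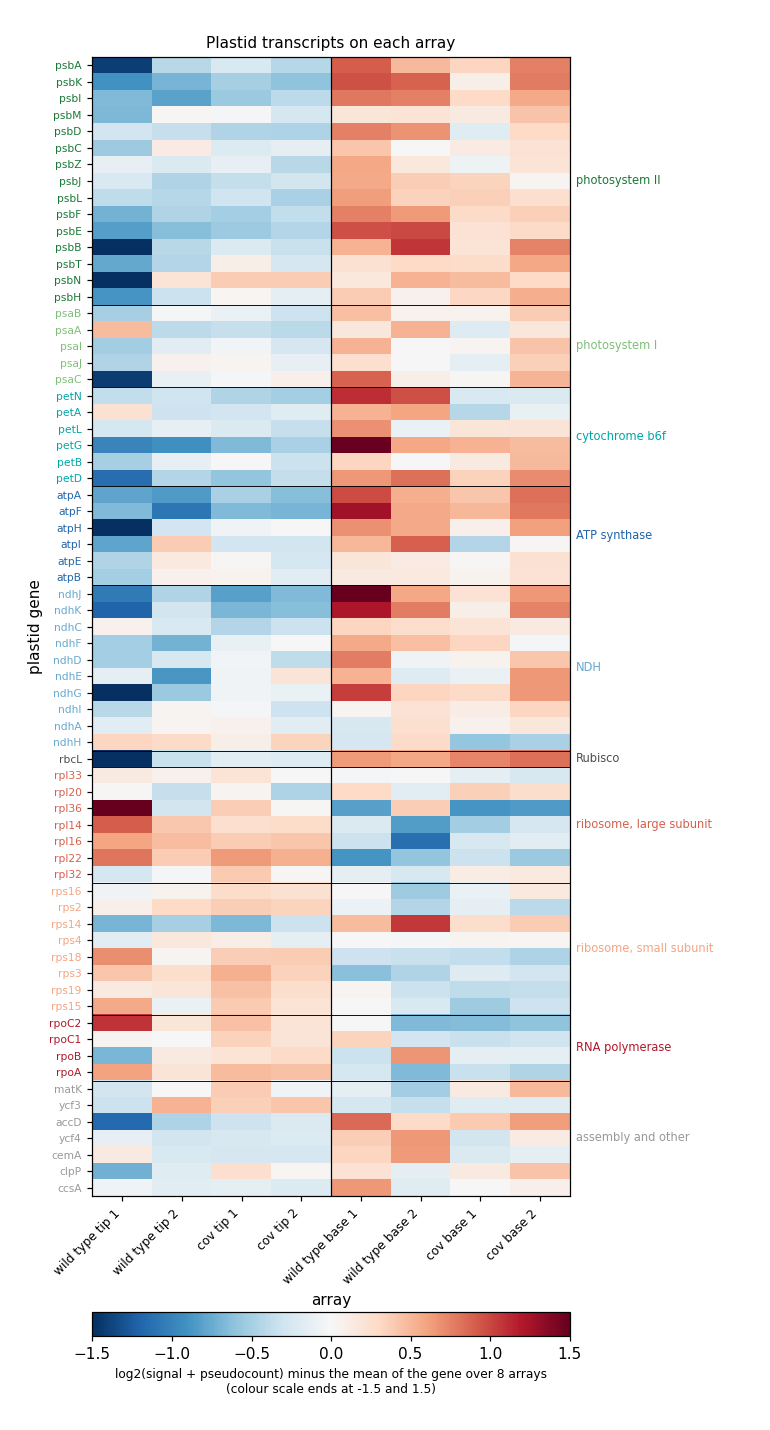
Heat map of the 69 plastid genes (rows, grouped by complex) on the 8 arrays (columns). Colour is log2(signal + 11.85) minus the mean of the gene over the 8 arrays, red above and blue below. Most photosynthesis rows turn from blue at the tips to red at the bases, most ribosome and polymerase rows the other way, and wild type tip array 1 holds the deepest colours among the tips.

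The share of the summed array signal that lay in the 69 plastid probe sets followed the same order. It was 1.81% and 2.13% on the wild type tip arrays and 2.93% and 2.64% on the wild type base arrays. The cov tips had 2.24% and 2.05%, and the cov bases 2.45% and 2.80%. Every base array was above every tip array, and the genotypes overlapped at the base and at the tip. The means were 1.97% ± 0.23 (SD, n = 2) at the wild type tip, 2.78% ± 0.20 at the wild type base, 2.14% ± 0.14 at the cov tip and 2.63% ± 0.25 at the cov base. Mitochondrial probe sets held 0.037% to 0.064% of the signal.

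Photosynthesis genes and gene expression genes had opposite directions in this share. The photosynthesis genes held 1.19% to 1.54% of the summed signal on the tip arrays and 1.87% to 2.33% on the base arrays, with no overlap. The ribosome and polymerase genes held 0.40% to 0.45% at the tips and 0.30% to 0.33% at the bases, also with no overlap. The mean log2 signal of the photosynthesis genes minus that of the ribosome and polymerase genes was 0.05 and 0.69 on the wild type tip arrays and 1.83 and 1.74 on the wild type base arrays. For cov it was 0.56 and 0.63 at the tip and 1.45 and 1.70 at the base. The 2 wild type tip arrays thus lay further apart in this measure than the arrays of any other group, and both still lay below every base array.

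**Figure D2:**
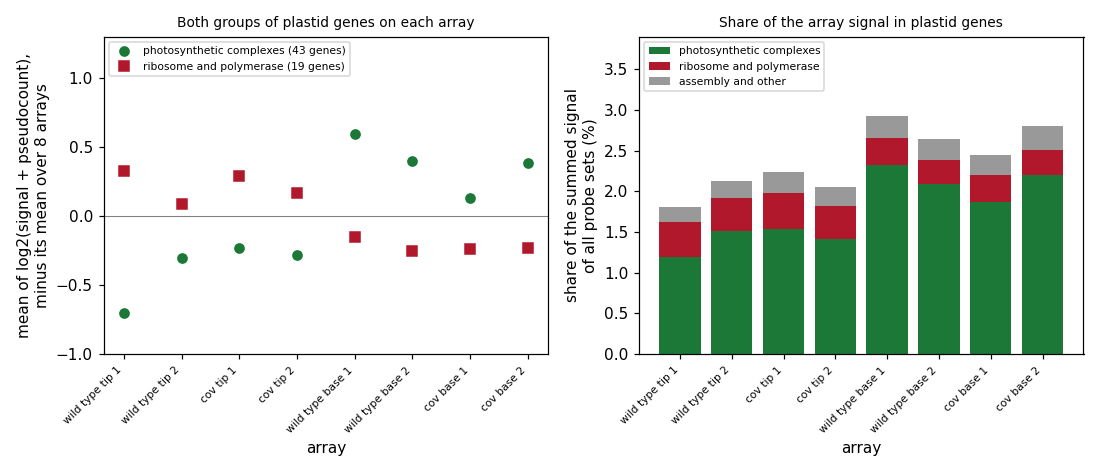
Left, mean log2(signal + 11.85) of the 43 photosynthesis genes (circles) and of the 19 ribosome and polymerase genes (squares) on each array, each minus its own mean over the 8 arrays. Right, share of the summed signal of all probe sets held by plastid genes (bars from 0, in %). Photosynthesis lies below its mean on the 4 tip arrays and above it on the 4 base arrays, ribosome and polymerase the reverse.

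In photosystem II, which splits water and holds the reaction centre proteins, 12 of 15 genes rose at the wild type base, 0 fell and the median difference was 1.03. psbE, a subunit of cytochrome b559, had a signal of 667 and 761 at the wild type tip and 2347 and 2379 at the wild type base. Both base arrays were far above both tip arrays of the same genotype. The difference of 1.71 ± 0.14 (3.28-fold, adjusted p = 3.39e-06) had the smallest p of the 69 genes in this comparison. psbA, which encodes the reaction centre protein D1, read 712 and 1434 at the tip and 3605 and 2672 at the base (difference 1.61 ± 0.29, adjusted p = 0.00097). psbB, the inner antenna protein CP47, read 266 and 613 at the tip and 1184 and 1737 at the base (1.80 ± 0.33, adjusted p = 0.00111). For both genes the tip and base arrays were clear of each other, with array 1 the lower one at the tip.

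The small subunits psbK (354 and 411 at the tip, 1318 and 1261 at the base, 1.73 ± 0.20, adjusted p = 5.06e-05) and psbI (309 and 281, then 870.5 and 845, 1.51 ± 0.15, adjusted p = 1.43e-05) rose about as far as psbE. psbF, the partner of psbE in cytochrome b559, rose by 1.28 ± 0.15 (adjusted p = 4.29e-05), and psbD, the reaction centre protein D2, by 1.03 ± 0.17 (adjusted p = 0.000483). psbH (0.83 ± 0.20, adjusted p = 0.00606) and psbZ (0.54 ± 0.18, adjusted p = 0.0321) lost their calls with wild type tip array 1 left out (adjusted p = 0.0582 and 0.0747) and with wild type base array 1 left out (0.0598 and 0.228). The 3 photosystem II genes not called were psbC (0.43), psbM (0.52) and psbN (1.46). psbN, chosen here after its values were seen, shows the weight of a single array: its signal was 23.3 on wild type tip array 1 and between 199.9 and 261 on all 7 others.

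Photosystem I passes electrons on to ferredoxin. Of its 5 genes 2 rose in wild type and 0 fell, and the median difference was 0.52. psaA and psaB encode the paired reaction centre proteins and were not called, at 0.31 ± 0.25 (adjusted p = 0.358) and 0.52 ± 0.21 (adjusted p = 0.0626). psaB read 2138 and 2979 at the tip and 4155 and 3153 at the base, and psaA 721 and 391.5 at the tip and 582.4 and 748 at the base. Tip and base overlapped for psaA and not for psaB. With its higher tip array, wild type tip array 1, omitted, psaA was called at 0.74 (adjusted p = 0.0247). psaC, which binds iron-sulphur clusters, read 252 and 641 at the tip and 1289 and 739 at the base (1.25 ± 0.37, adjusted p = 0.0174), but was not called when wild type tip array 1 (adjusted p = 0.168) or wild type base array 1 (0.163) was left out. psaI, a small subunit, rose by 0.60 ± 0.21 (adjusted p = 0.038), and was likewise not called without wild type tip array 1 (adjusted p = 0.227) or wild type base array 1 (0.28).

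The cytochrome b6f complex links both photosystems. Of its 6 plastid genes 4 rose in wild type, with a median of 0.98. petN, a small subunit, read 60.8 and 64.2 at the tip and 189.6 and 171 at the base (1.37 ± 0.16, adjusted p = 5.09e-05). petG, another small subunit, read 17.1 and 18.7 at the tip and 148.9 and 74.8 at the base (1.99 ± 0.27, adjusted p = 0.000136). Its tip signals lie under the limit set for dim probe sets, so the size depends on the added 11.85: with 47.4 added instead the difference was 1.25 (adjusted p = 0.000251). petD, subunit IV, rose by 1.52 ± 0.24 (adjusted p = 0.000374) and petA, cytochrome f, by 0.60 ± 0.19 (adjusted p = 0.023, and 0.0696 with wild type base array 1 omitted). petB, cytochrome b6, read 2398 and 3121 at the tip and 4263 and 3386 at the base, a difference of 0.47 ± 0.20 (adjusted p = 0.0781). Its base arrays were both above its tip arrays, without a call.

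In the chloroplast ATP synthase the catalytic head and the membrane part are both represented, and 4 of 6 genes rose in wild type with a median of 1.24. atpA, the alpha subunit, read 944 and 907 at the tip and 3247 and 2410 at the base (1.58 ± 0.19, adjusted p = 4.95e-05). atpF, a stalk subunit, read 308 and 226 at the tip and 1197 and 739 at the base (1.79 ± 0.23, adjusted p = 8.63e-05). In both genes the lower base array was more than 2 times the higher tip array. atpB and atpE, the beta and epsilon subunits, were not called at 0.36 ± 0.19 and 0.30 ± 0.20. atpB read 2991 and 4463 at the tip and 4675 and 4704 at the base. atpH, the membrane ring subunit (1.57 ± 0.34, adjusted p = 0.00289), and atpI (0.91 ± 0.33, adjusted p = 0.0448) also rose. With the lower of its pair, wild type tip array 1, omitted, atpH was at 0.91 and was still called (adjusted p = 0.0109). The difference of atpI was 0.32 (adjusted p = 0.392) without wild type tip array 1 and its adjusted p was 0.072 with wild type base array 1 omitted.

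The NDH complex carries electrons around photosystem I, and 5 of its 10 genes rose in wild type, with a median of 0.70 and 0 called lower. ndhJ read 187 and 293 at the tip and 1202 and 608 at the base (1.82 ± 0.30, adjusted p = 0.000521), and ndhK 137 and 272 at the tip and 782 and 574 at the base (1.73 ± 0.30, adjusted p = 0.000679). ndhF was dim at the tip, with 13.3 and 10.1 against 41.3 and 37.2 at the base (1.12 ± 0.24, adjusted p = 0.00311). Its tip signals too lie under the dim limit, and with 47.4 added the difference was 0.55 (adjusted p = 0.00291). ndhG rose by 1.75 ± 0.32 (adjusted p = 0.00105). ndhD, at 0.73 ± 0.25 (adjusted p = 0.0355), was not called when wild type tip array 1 was omitted (0.184), nor with wild type base array 1 omitted (0.312). ndhA (0.07), ndhI (0.32), ndhC (0.38), ndhE (0.66) and ndhH (-0.29) were not called, so subunits of one complex ran from ndhH to ndhJ in their differences.

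rbcL, the large subunit of the carbon-fixing enzyme Rubisco, read 185 and 651 at the wild type tip and 1289 and 1233 at the base. Its difference was 1.82 ± 0.40 (3.52-fold, adjusted p = 0.00351), and without wild type tip array 1, the lower of the pair, it was 0.94 (adjusted p = 0.00156). The call holds in both cases, and the size depends on that array.

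Genes of the plastid ribosome went the other way or did not pass the test. Of 7 large-subunit genes 3 fell in wild type and 0 rose, with a median of -1.13. rpl22 read 849 and 629 at the tip and 256 and 314 at the base, a difference of -1.33 ± 0.18 (adjusted p = 0.00013). rpl16 read 880.4 and 802 at the tip and 461 and 258 at the base (-1.25 ± 0.22, adjusted p = 0.000817), and rpl14 read 349 and 242 at the tip and 152.5 and 95.1 at the base (-1.19 ± 0.23, adjusted p = 0.00152). In all 3 genes both tip arrays were above both base arrays. rpl20 (0.23), rpl32 (-0.05) and rpl33 (-0.11) lay near 0. rpl36, chosen after its values were seen, read 400.2 and 69.3 on the wild type tip arrays, so its difference of -1.13 had a standard error of 0.59, and without wild type tip array 1 it was at 0.045.

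Of 8 small-subunit genes 3 fell and 1 rose, with a median of -0.32. rps3 read 1169 and 1056 at the wild type tip and 565 and 639 at the base (-0.88 ± 0.14, adjusted p = 0.000539). rps18 fell by 0.69 ± 0.20 (adjusted p = 0.0134) and rps2 by 0.46 ± 0.17 (adjusted p = 0.0463). Without wild type tip array 1 neither was called: rps18 was at -0.37 (adjusted p = 0.107) and rps2 at -0.57 (adjusted p = 0.0501). Without wild type base array 1, rps18 was at -0.70 (adjusted p = 0.0548), and with the second base array omitted the adjusted p was 0.0578 for rps18 and 0.268 for rps2. rps14 was the exception, with 29.8 and 36.2 at the tip and 82.2 and 129 at the base (1.36 ± 0.23, adjusted p = 0.000682). rps14 lies next to psaA and psaB in a shared transcription unit, where these had differences of 0.31 and 0.52, neither called. rps4, chosen after its values were seen, read 2521 and 3145 at the tip and 2807 and 2797 at the base, a difference of -0.01 ± 0.16.

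The 4 genes of the plastid-encoded RNA polymerase had a median of -0.43 in wild type, and 2 fell. rpoA, the alpha subunit, read 574 and 429 at the tip and 309.5 and 232 at the base (-0.86 ± 0.18, adjusted p = 0.00272). rpoC2, the beta-double-prime subunit, read 328 and 170.5 at the tip and 149 and 89.9 at the base (-0.96 ± 0.29, adjusted p = 0.0176). Without wild type tip array 1, the higher of its pair, rpoC2 was at -0.51 (adjusted p = 0.171), and with the second base array omitted at -0.63 (adjusted p = 0.154). For both the tip arrays were above the base arrays. rpoC1, the beta-prime subunit, read 725 and 710.3 at the tip and 889.7 and 575 at the base (-0.00 ± 0.19). rpoB, the beta subunit, was dim, with 18.6 and 41.7 at the tip and 27.1 and 65.6 at the base (0.44 ± 0.34), and the groups overlapped for rpoB and rpoC1.

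The other 7 genes were mixed, with 3 higher, 0 lower and a median of 0.50. accD, a subunit of the acetyl-CoA carboxylase that starts fatty acid synthesis, read 199 and 333 at the tip and 846 and 567 at the base (1.38 ± 0.24, adjusted p = 0.000801). ycf4, an assembly factor of photosystem I, rose by 0.71 ± 0.17 (adjusted p = 0.00564), and cemA, an envelope membrane protein, by 0.53 ± 0.17 (adjusted p = 0.0224). clpP, a subunit of the Clp protease, was at 0.50 ± 0.21 (adjusted p = 0.0742). Its signal was 1493 and 2173 at the tip and 2887 and 2246 at the base. matK, an intron maturase, read 1347 and 1627 at the tip and 1483 and 1138 at the base (-0.19 ± 0.20). Of the genes outside photosynthesis and gene expression, accD had the largest wild type difference.

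Leaving out arrays did not turn a called direction in wild type. Without wild type tip array 1, 25 of 43 photosynthesis genes rose and 0 fell, and 5 of 19 ribosome and polymerase genes fell and 1 rose. Without both wild type arrays numbered 1 these counts were 22 higher and 0 lower, and 7 lower and 1 higher. Of the 40 wild type calls, 27 were kept in every one of 16 alternative settings, 22 higher and 5 lower. The 5 lower ones were rpl14, rpl16, rpl22, rps3 and rpoA. The calls lost in at least 1 setting were those of atpI, cemA, ndhD, petA, psaC, psaI, psbH, psbT, psbZ, rpoC2, rps2, rps18 and ycf4.

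The second comparison asks the same of the cov stem. As in wild type, most photosynthesis genes lay above 0 and most ribosome and polymerase genes below it. Of the 43 photosynthesis genes 15 rose and 1 fell (median 0.47), and of the 19 ribosome and polymerase genes 1 rose and 9 fell (median -0.63). Over all 69, 17 rose and 10 fell, 24.6% and 14.5%, where among all probe sets 15.4% rose and 15.8% fell, 31.3% in all. The median of the 69 was 0.26. Medians of every photosynthetic complex were nearer 0 than in wild type, while those of the small ribosomal subunit and of the polymerase were further from 0. The count in cov rests on few arrays. It was 27 with all arrays, and lower with either cov tip array or with cov base array 2 omitted. Among all probe sets, too, fewer were called in cov with any of these arrays omitted. How much of the fall is particular to plastid genes was not tested.

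By complex, 8 of 15 photosystem II genes rose in cov (median 0.52), 0 of 5 photosystem I genes (median 0.36), 2 of 6 cytochrome b6f genes (0.47), 2 of 6 ATP synthase genes (0.31) and 3 of 10 NDH genes, of which 1 more fell (0.41). rbcL read 734 and 721 at the cov tip and 1370 and 1470 at the cov base, 0.95 ± 0.40 (adjusted p = 0.0994). Its tip and base arrays did not overlap, but it was not called. Of the large-subunit ribosome genes 1 of 7 fell (median -0.60), of the small-subunit genes 5 of 8 fell and 1 rose (-0.65), and of the polymerase genes 3 of 4 fell (-0.72).

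atpA had the smallest p of the cov comparison, with 1169 and 1056 at the cov tip and 2198 and 2929 at the cov base (1.18 ± 0.19, 2.27-fold, adjusted p = 0.000764). psbI read 335 and 374 at the cov tip and 614 and 742 at the cov base (0.91 ± 0.15, adjusted p = 0.000993), and atpF 308 and 299 at the tip and 701 and 862 at the base (1.32 ± 0.23, adjusted p = 0.00132). psbE read 818 and 880.4 at the tip and 1392 and 1464 at the base (0.74 ± 0.14, adjusted p = 0.00215). All 4 genes rose in wild type as well. petD, at 56.3 and 68.2 against 119 and 155, rose by 1.0 ± 0.24 (adjusted p = 0.0086), ndhJ by 1.17 ± 0.30 (adjusted p = 0.0124) and accD by 0.77 ± 0.24 (adjusted p = 0.0327).

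Among the genes that fell, rpl22 read 753 and 702 at the cov tip and 382 and 324 at the cov base (-1.02 ± 0.18, adjusted p = 0.00147). rps3 fell by 0.68 ± 0.14 (adjusted p = 0.00458) and rpoA by 0.85 ± 0.18 (adjusted p = 0.00492), with 524 and 511 at the tip and 295 and 270.1 at the base. rps19 (fell by 0.72 ± 0.16, adjusted p = 0.00509) and rpoC1 (fell by 0.59 ± 0.19, adjusted p = 0.0369) were called in cov and not in wild type. The limma test of the change in gradient between genotypes called neither of them (adjusted p = 0.415 and 0.344). ndhH, the only photosynthesis gene called lower, read 75.1 and 90.6 at the cov tip and 42.8 and 46.6 at the cov base (-0.74 ± 0.21, adjusted p = 0.0199). Its neighbour rps15 also fell in cov, by 0.73 ± 0.24 (adjusted p = 0.0417). Calls kept in every alternative setting were 8 of 27: atpA, atpF, psbE, psbF, psbI and psbK higher, and rpl22 and rpoA lower.

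The gradients of both genotypes come from separate arrays. The sign was the same in 65 of 69 plastid genes, where over all probe sets tested it was the same in 81.4%. The genes called in both genotypes numbered 22, which is 22 of the 40 called in wild type and 22 of the 27 called in cov, all with the same sign. The difference lay nearer 0 in cov than in wild type for 54 of 69 plastid genes, against 68.7% of all probe sets. Of the 40 called in wild type it lay nearer 0 in cov for 38, against 88.2% of the 7391 probe sets called in wild type. Both of these sets were picked by their wild type difference, which by itself favours a value nearer 0 in cov. Their counts are therefore no measure of a flatter gradient. Over all probe sets the median gap between arrays was 0.22 (tip) and 0.231 (base) in wild type, and 0.149 and 0.2 in cov. The part of this spread in the count over all probe sets was not tested. A difference nearer 0 in cov was common on the whole array, and whether the plastid share of it differs from the rest was not tested.

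**Figure D3:**
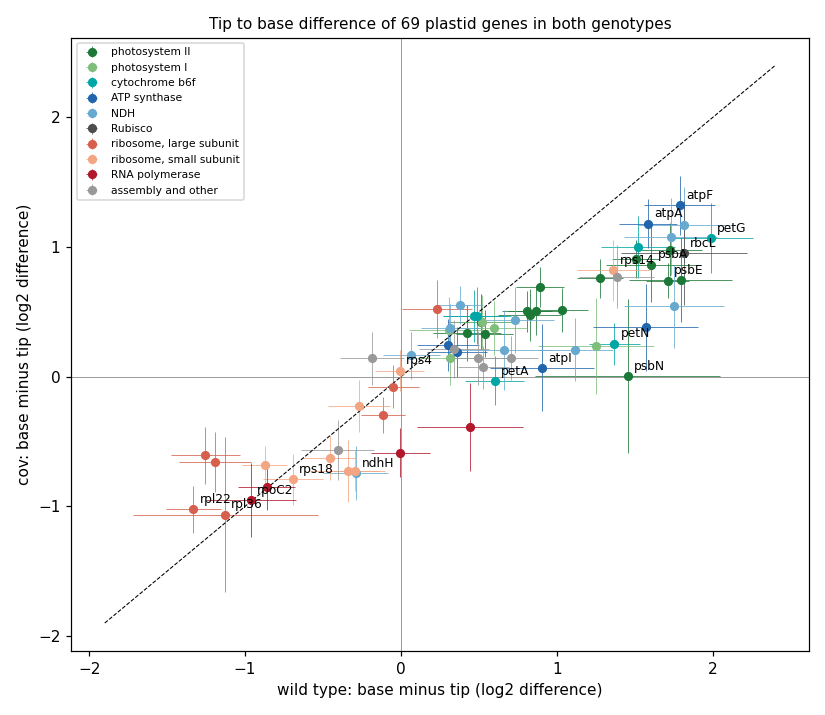
Base minus tip difference of each of the 69 plastid genes in wild type (x axis, log2) against that in cov (y axis, log2). Points are coloured by complex, bars are standard errors of the limma fit and the dashed line marks equal values. Photosynthesis genes fill the upper right quadrant, mostly below the line, and most ribosome and polymerase genes the lower left, where points lie on both sides of the line.

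The third comparison sets cov against wild type at the base. Of the 69 plastid genes 5 were lower in cov and 0 higher (7.25% in all), where 5.53% of all probe sets were called, 2.11% lower and 3.42% higher. The 5 genes are petN and petA of the cytochrome b6f complex, psbE and psbD of photosystem II, and cemA. The median over the 69 was -0.16 against 0.02 for all probe sets. The photosynthesis genes had a median of -0.21, and the ribosome and polymerase genes -0.003. These medians rest on single arrays: with wild type base array 1 omitted the median was -0.004 over the 69 and -0.09 for photosynthesis, and with cov base array 1 omitted -0.045 for both.

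petN read 67.9 and 68.6 at the cov base and 189.6 and 171 at the wild type base, a difference of -1.26 ± 0.16 (adjusted p = 0.00135). The cov tip arrays read 56.5 and 54.0, close to the cov base, while the wild type base stood apart from all 6 other arrays. The call was kept in every alternative setting. psbE, at 1392 and 1464 against 2347 and 2379, differed by -0.72 ± 0.14 (adjusted p = 0.0121), and its adjusted p was 0.0556 without cov base array 1, 0.0633 without wild type base array 1 and 0.0553 without wild type base array 2. In both genes neither array of a group reached the range of the other genotype.

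petA read 1157 and 1437 at the cov base and 2241 and 2351 at the wild type base (-0.83 ± 0.19, adjusted p = 0.0288), and cemA 983 and 1030 against 1434 and 1782 (-0.66 ± 0.17, adjusted p = 0.0434). psbD read 448 and 629 against 870.4 and 818 (-0.66 ± 0.17, adjusted p = 0.0478). The groups did not overlap in any of the 3, yet all these calls were lost in most settings. Of 16 alternative settings, petA was called in 6, cemA in 5 and psbD in 3. Of the 5, petN and psbE alone were still called with either cov tip array omitted, and petN alone with cov base array 1 or either wild type base array omitted. Without wild type base array 1, rpl16 was called higher in cov (0.93, adjusted p = 0.0215). matK was the highest of the 69 at the cov base relative to wild type, with 1789 and 2288 against 1483 and 1138 (0.63 ± 0.20, adjusted p = 0.11).

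**Figure D4:**
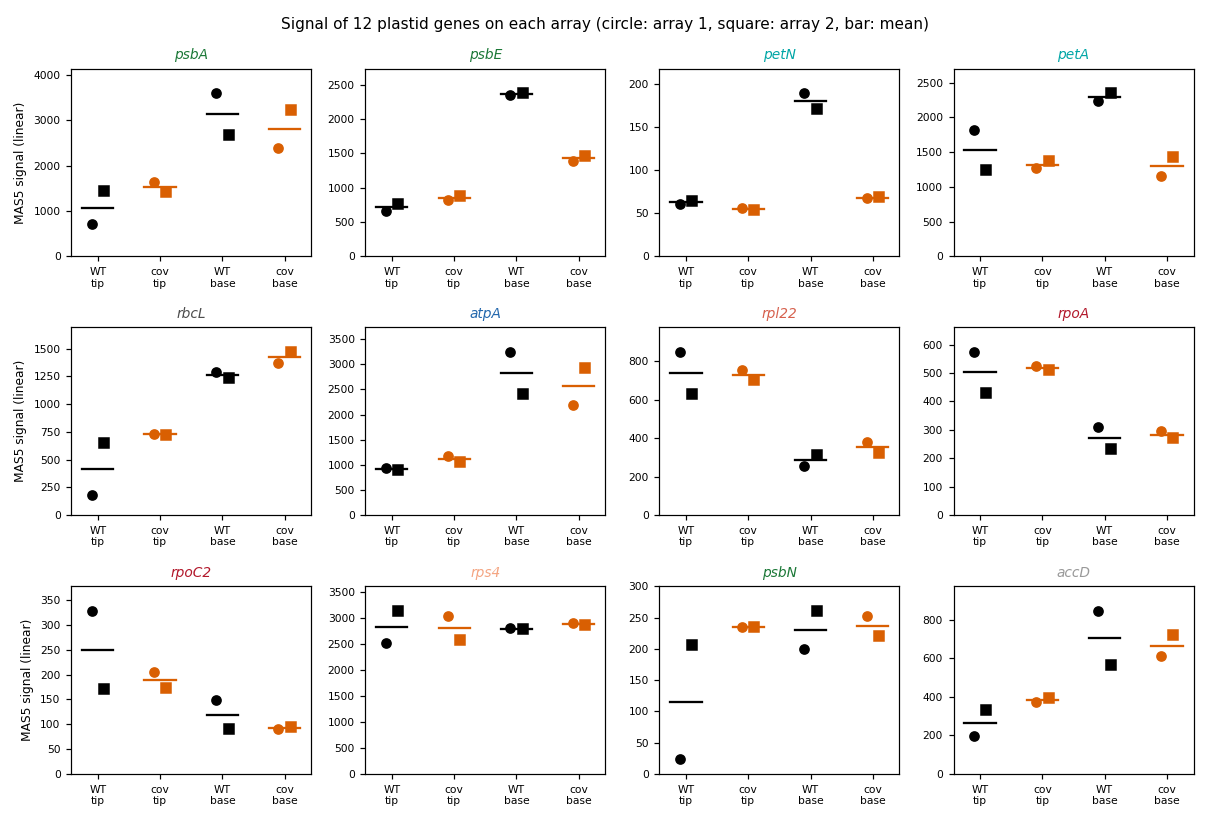
Signal (linear MAS5 units, axes from 0) of 12 plastid genes on each array, wild type in black and cov in orange, with a bar at the mean of each pair of arrays. petN, psbE and petA are clearly higher at the wild type base than at the cov base, rpl22, rpoA and rpoC2 are lower at the bases than at the tips in both genotypes, and psbN and rbcL have 1 wild type tip array far below the other.

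The fibre and xylem markers were also lower at the cov base than at the wild type base. Their summed signal was 1235 and 1759 on the cov base arrays and 2902 and 2316 on the wild type base arrays, with 170 to 228 on the tip arrays, and 2 of the 3 were called lower in cov. Named genes of green tissue were LHCB4.1, LHCB4.2 and LHCB4.3, antenna proteins of photosystem II. They summed to 3724 and 4552 at the cov base and 3703 and 3496 at the wild type base, with 0 of 3 called. LHCB4.1 made up most of this sum. All 3 lay above 0 in cov against wild type, from 0.08 to 1.04. LHCB4.3 read 292.7 and 652.6 at the cov base and 164.7 and 260 at the wild type base (1.04 ± 0.31, adjusted p = 0.0827). The part of either tissue in the plastid results was not tested.

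At the tip no plastid gene was called between the genotypes by limma, where 1.82% of all probe sets were called (1.41% higher and 0.408% lower). At an unadjusted p under 0.05 there were 9 plastid genes, all higher in cov, and 1711 of all probe sets. The smallest p belonged to ndhG, with 119 and 115 at the cov tip and 33.1 and 80.3 at the wild type tip (0.999 ± 0.32, adjusted p = 0.223). rbcL had a difference of 1.03 ± 0.40 and atpH of 0.91 ± 0.34, both with wild type tip array 1 as the low one. Without wild type tip array 2, so with array 1 alone as the wild type tip, atpH (1.57, adjusted p = 0.0152), rbcL (1.91, adjusted p = 0.00119) and psbN were called higher in cov. Without array 1 there were 0 calls.

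The difference between the genotypes changed from tip to base in 2 of 69 plastid genes (2.90%), both towards lower in cov at the base, where 2.15% of all probe sets were called (1.11% higher and 1.04% lower). They were psbE, at -0.97 ± 0.20 (adjusted p = 0.0336), and petN, at -1.11 ± 0.23 (adjusted p = 0.0362). The values by genotype were a rise of 1.71 in wild type and 0.74 in cov for psbE, and of 1.37 and 0.26 ± 0.16 (adjusted p = 0.269) for petN. The median over the 69 was -0.35, against 0.01 over all probe sets. It was -0.23 with wild type tip array 1 omitted, -0.17 with wild type base array 1 omitted and -0.05 with both omitted. Leaving out any 1 array other than wild type tip array 2 gave 0 calls, and leaving out that array gave 4 (atpH, psbE, psbN and rbcL). Without wild type tip array 1 the adjusted p was 0.0964 for psbE and 0.0953 for petN, at differences of -0.88 and -1.08. For the other 67 genes a change of the gradient between genotypes was not detectable at this precision, the median standard error over the 69 being 0.29.

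Along the plastid genome, some transcription units had all their members on 1 side of 0 and others were split. The gene order used here is that of the RefSeq annotation, and the units are the textbook ones. The cluster from rps19 to rpoA, which encodes ribosomal proteins and the polymerase alpha subunit, had 7 members, of which 5 fell in wild type and 4 in cov. Their differences ran from -1.33 to -0.30 in wild type and from -1.06 to -0.60 in cov, so all 7 were below 0 in both genotypes with all arrays, and rpl36 was not in wild type without wild type tip array 1. The unit psbE-psbF-psbL-psbJ had 4 of 4 genes called higher in both genotypes, with differences of 0.81 to 1.71 in wild type and 0.51 to 0.76 in cov. psbK and psbI also rose in both.

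The unit psaI-ycf4-cemA-petA had 4 of 4 genes higher in wild type, at 0.53 to 0.71, and 0 of 4 called in cov, at -0.03 to 0.38. The limma test of the change in gradient between genotypes called 0 of 4, with adjusted p from 0.297 (petA) to 0.793 (psaI). A loss of the gradient in cov was thus not shown for this unit. Its last 2 genes, cemA and petA, were among the 5 called lower at the cov base. There ycf4, the gene before them, had a difference of -0.59 ± 0.17 (adjusted p = 0.0761). psaI, the first, was at -0.03 ± 0.21. The comparisons of wild type base with wild type tip and of cov base with wild type base share the wild type base arrays, so these values are not independent.

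Other units were split. In the unit rps2-atpI-atpH-atpF-atpA, rps2 fell in both genotypes while atpF and atpA rose in both, a spread of 2.25 log2 units in wild type and 1.95 in cov. In rpoB-rpoC1-rpoC2 the differences ran from -0.96 to 0.44 in wild type and from -0.95 to -0.39 in cov. petL and petG share a unit, yet petL read 617 and 678 at the wild type tip and 1200 and 692 at the base (0.49 ± 0.22, adjusted p = 0.0907), where petG rose by 1.99. In the unit from psbB to petD, 4 of 5 genes rose in wild type, and petB alone did not pass the test. In the unit from ndhH to ndhD, which also holds psaC, 3 of 7 rose in wild type, while in cov 0 rose and ndhH fell. The change in gradient between genotypes was called for 0 of these 7.

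**Figure D5:**
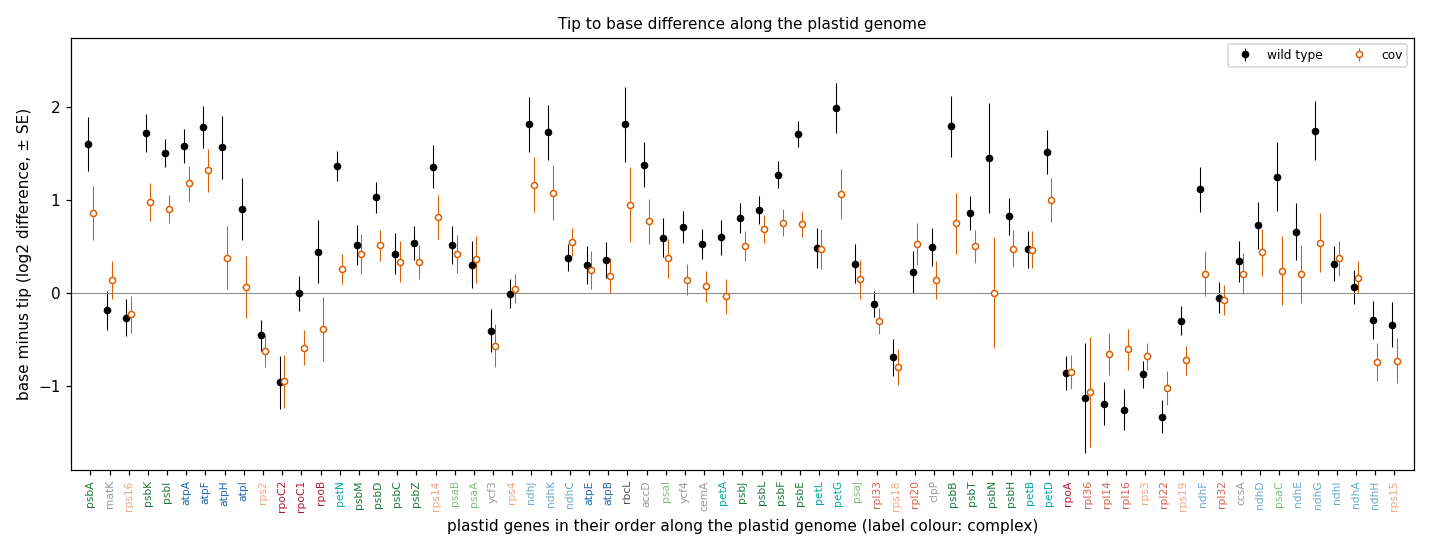
Base minus tip difference (log2, ± SE) of the 69 plastid genes in their order along the plastid genome, equally spaced, for wild type (filled) and cov (open). Label colours give the complex. The block from rpoA to rps19 lies below 0 in both genotypes, between stretches of photosynthesis genes above 0.

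Plastid probe sets also differ in how bright they are. Of 9 photosynthesis genes with a mean signal of 2000 or more, 1 rose in wild type (psbA) and the median difference was 0.43. Of the 34 with a lower mean signal 27 rose, with a median of 1.19. Across the 69 genes Pearson's r between mean log2 signal and the size of the difference was -0.27 in wild type and -0.24 in cov, as a description over genes that share arrays and transcripts. The highest signal of any probe set was 3400.4 to 6286 per array. The part of signal level in these differences was not tested.

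Subunits of the same complexes are also encoded in the nucleus. The annotation named 9 such genes with 1 gene per probe set. Of these 0 rose and 3 fell (33.3%) in wild type, where 22.0% of all probe sets rose and 24.4% fell. In cov 0 rose and 1 fell (11.1%), where 15.4% of all probe sets rose and 15.8% fell. PSAN, a photosystem I subunit, fell by 0.96 ± 0.17 in wild type (adjusted p = 0.000827) and by 0.51 ± 0.17 in cov (adjusted p = 0.0421). PSBY, of photosystem II, fell by 0.52 ± 0.15 in wild type (adjusted p = 0.0179), and LHCB4.3 by 2.05 ± 0.31 (adjusted p = 0.000276). LHCB4.1, PSAE-1, ATPC1 and PSBW lay between -0.23 and 0.24 in wild type without a call. At the tip and at the base 0 of the 9 differed between genotypes by limma.

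Genes for plastid RNA processing with a named probe set numbered 6, of which 5 were tested, 3 fell in wild type and 2 in cov. Of all probe sets 24.4% fell in wild type and 15.8% in cov. PAC, needed for plastid RNA maturation, fell by 1.29 ± 0.22 in wild type (adjusted p = 0.000664) and by 1.40 ± 0.22 in cov (adjusted p = 0.000746). CAF1, a splicing factor of plastid introns, fell by 0.88 ± 0.25 (adjusted p = 0.0141) and 0.97 ± 0.25 (adjusted p = 0.0127), and CRR21, an editing factor of an ndhD transcript, by 1.13 ± 0.20 in wild type alone by call (adjusted p = 0.000974). Sigma factors, the phage-type polymerase and the polymerase-associated proteins had no named probe set here and are not analysed.

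Genes of the mitochondrial genome, the other organelle genome of the cell, had 23 probe sets, of which 16 were tested. In wild type 3 rose (18.8%) and 0 fell, with a median of 0.34, where 22.0% of all probe sets rose and 24.4% fell. In cov 5 rose (31.2%) and 0 fell, with a median of 0.42, where 15.4% of all probe sets rose and 15.8% fell. cox1, a subunit of the respiratory terminal oxidase, rose by 0.95 ± 0.23 in wild type (adjusted p = 0.0067) and 1.04 ± 0.23 in cov (adjusted p = 0.00656). The plastid medians for the same comparisons were 0.52 and 0.26. Whether the organelles differ in this was not tested.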

How the data were processed

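The deposited values are linear MAS5 signal intensities, as the submitters' processing notes name the tool, with a version not given in the sources used here. No further normalization was applied, and 0 columns belonged to no sample. Of 22810 probe sets 64 controls were left out. The computed values are log2(signal + 11.85), where 11.85 is 0.25 of the table median. Probe sets with a mean signal under the 30th percentile (21.36) were left out, leaving 15923. limma 3.58.1 in R 4.3.3 fitted 4 group means to all 8 arrays, with eBayes and a trend, and Benjamini-Hochberg adjustment over all probe sets tested. Precision is limited by having 2 arrays a group.

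The members, the lists of nuclear genes and the markers were chosen with earlier results of these data known. Named genes were, per complex, the smallest p in each gradient, up to 4 called members per comparison and a list of core genes. Alternatives comprised 14 planned and 2 added after seeing the data: without both wild type arrays numbered 1, and centring on the plastid median. Replicate numbers were not used to pair the arrays in the main fit, since the labels name no pairing. Deviations of the arrays numbered 1 from their group means correlated at -0.04 to 0.16 between groups. These values cannot exclude a shared batch or harvest.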

Additional observations from a re-analysis of the deposited data

Results flagged for a closer look

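Among the 69 plastid genes, 2 had a genotype difference at the base that differed from that at the tip by a test of the difference itself. This is 2.90%, where 2.15% of all probe sets were called. petN, of the cytochrome b6f complex, had a difference of -1.11 ± 0.23 on the log2 scale (limma adjusted p = 0.0362). Its signal rose from 60.8 and 64.2 at the wild type tip to 189.6 and 171 at the wild type base, against 56.5 and 54.0 to 67.9 and 68.6 in cov. psbE, of photosystem II, had -0.97 ± 0.20 (adjusted p = 0.0336). Each was called in 5 of 16 alternative settings. With 1 array left out in turn, the petN call was lost for each of the 8 arrays (differences -1.18 to -1.04) and the psbE call for all but wild type tip array 2 (differences -1.07 to -0.88). The adjusted p then reached 0.148 for petN and 0.188 for psbE.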

How the results depend on the processing

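The count of 40 plastid genes called between base and tip in wild type stayed within 1.5 times in every setting (33 to 45 with 1 array left out, 40 with the replicate block, 34 without both wild type arrays numbered 1, 45 with median centring). The 27 in cov ran from 9 to 33 with 1 array left out. At the base, 5 genes were called as reported, 2 without the filter on dim probe sets, 2 with eBayes without a trend, 3 with quantile normalization (1 higher, 2 lower), 3 with the replicate block, 4 centred on the plastid median (2 higher, 2 lower) and 1 to 6 with 1 array left out. For the change of the genotype difference from tip to base, 2 genes were called as reported, 0 without the filter, 1 without a trend, 0 without both wild type arrays numbered 1, 0 centred on the plastid median and 0 to 4 with 1 array left out. At the tip the count was 0, and 0 to 3 with 1 array left out. The cause was not tested. The replicate block changed no other count by over 1.5 times. Centring on the plastid median, which moved the median of all probe sets in wild type to -0.36, gave 25 higher and 14 lower in wild type, against 32 and 8. Median centring moved it to 0.11 and gave 38 higher and 7 lower. No plastid gene that was called reversed its sign in a setting that was run.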

Other observations

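The 8 plastid probe sets that carry several genes were left out of every count above. Of these, ycf1, an essential plastid gene of protein import, fell from 741 and 618 at the wild type tip to 233 and 221 at the wild type base (-1.53 ± 0.15, adjusted p = 1.51e-05) and from 497 and 537 to 237 and 204 in cov (-1.19 ± 0.15, adjusted p = 0.000195). rpl23, of the ribosome, fell in both genotypes, by 0.64 ± 0.18 in wild type (adjusted p = 0.0117) and 0.76 ± 0.18 in cov (adjusted p = 0.00775). ndhB, of the NDH complex, rose by 1.20 ± 0.24 in wild type (adjusted p = 0.00172), ycf2 by 0.82 ± 0.27 (adjusted p = 0.0268) and 1 of the 2 rps12 probe sets by 1.01 ± 0.24 (adjusted p = 0.00493). The remaining rps12 probe set, rpl2 and rps7 were not called in wild type, at 0.47, -0.10 and 0.20.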
